A study of Mus musculus with 4 samples.

Results

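TRBV21, TRBV22, TRBV24 and TRBV30 are 4 variable (V) segments of the mouse T cell receptor beta chain (TCRβ) locus. In the spleen, they were the first V segment listed for 4193 of 382531 TCRβ clones, and 24 TRBV segments were found in all. Members were chosen by name: a clone belonged to a segment when that segment, without its allele, was its best V match. TRBV21 held 76 clones, TRBV22 held 125, TRBV24 held 2338 and TRBV30 held 1654. The cells were CD4 T cells of the spleen, sorted as live, TCRβ positive and CD25 negative, and without cells that bind the αGalCer-CD1d tetramer, which marks iNKT cells. There were 2 WT mice (C57BL/6) and 2 Tet2/3 DKO mice. The DKO mice lack Tet2 in the germline (Tet2-/-) and carry Tet3 flx/flx with CD4Cre, which deletes Tet3 from the double positive stage of thymic development onward, and TET2 and TET3 are enzymes that oxidise 5-methylcytosine in DNA. Mice were of both sexes and averaged 25 days of age, and each library came from the cells of 1 mouse. The libraries held 365421 to 569678 TCRβ reads and 81127 to 104017 clones. No molecular identifiers were used, so intervals on shares of clones cover counting error only.

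A TCRβ chain is made by joining a V, a D and a J segment in the thymus, with bases trimmed and added at the joints. The joint forms the third complementarity determining region (CDR3), and a join that shifts the reading frame or makes a stop codon gives no protein. Such a nonproductive allele can persist in a T cell whose other allele is productive, and its transcripts are known to be reduced by nonsense-mediated decay. A V segment with a stop codon in its own exon cannot give a TCRβ chain whatever its join. In the RefSeq annotation of GRCm38.p6 (mm10), Trbv21 lies at chr6:41202587-41203044, Trbv22 at chr6:41212075-41212534, Trbv24 at chr6:41218091-41218557 and Trbv30 at chr6:41281376-41281990. Of these, only Trbv22 is annotated as a pseudogene. Trbv30 is the last Trbv gene before the D and J segments, and no Trbv gene lies in the 251210 bases between it and Trbd1.

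The sequences below are framework region 3, the last part of the V exon before the CDR3, as most clones of each segment carried it. They are shown because they decide whether the segment can be read through, and capitals mark a stop codon in the reading frame.
TRBV21: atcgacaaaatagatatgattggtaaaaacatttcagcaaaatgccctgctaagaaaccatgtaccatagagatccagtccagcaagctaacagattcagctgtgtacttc
TRBV22: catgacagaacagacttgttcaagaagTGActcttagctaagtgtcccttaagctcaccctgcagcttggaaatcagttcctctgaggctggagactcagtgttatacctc
TRBV24: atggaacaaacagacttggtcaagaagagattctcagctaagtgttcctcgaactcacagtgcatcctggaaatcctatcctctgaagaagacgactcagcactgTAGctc
TRBV30: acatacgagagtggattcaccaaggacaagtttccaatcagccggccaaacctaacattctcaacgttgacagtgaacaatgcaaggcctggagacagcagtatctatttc

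TRBV22 and TRBV24 both carried a stop codon in this region. In TRBV24 it was a TAG at codon 36 of the 37 codons of framework region 3, 3 bases before the CDR3. In TRBV22 it was a TGA at codon 10 of 37, 81 bases before the CDR3. Stops were also counted anywhere from framework region 1 through framework region 3, with CDR1 and CDR2 included. Such a stop was present in 2319 of 2319 TRBV24 clones with a CDR3 and in 125 of 125 TRBV22 clones. It was found in 0 of 75 TRBV21 clones, which allows a share of up to 4%, and in 0.911% of TRBV30 clones, against a mean of 1.28% ± 0.0456 (SD, n = 4 libraries) in the other 20 TRBV segments pooled. Among these TRBV23 stood apart, with such a stop in 12.8% to 16.4% of its clones by library. TRBV24, which RefSeq also lists under the name Tcrb-V17, was therefore a segment without an open reading frame in both genotypes, although it is not annotated as a pseudogene. The annotation went the other way for TRBV29: RefSeq lists 13 of 35 Trbv genes as pseudogenes, and of these only TRBV22 and TRBV29 were found in the clones, TRBV29 with 10026 of them. None of the 11 other pseudogene segments searched for by name, such as TRBV6 and TRBV28, was a best match of any clone.

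The nonproductive share of clones set the members apart. A clone was called nonproductive when its CDR3 was out of frame, or in frame with a stop codon, and only clones with a CDR3 were counted. Among TRBV24 clones the nonproductive share was 79.5% in WT replicate 1, 80.3% in WT replicate 2, 78.2% in DKO replicate 1 and 77.7% in DKO replicate 2. Among TRBV22 clones it was 77.8%, 57.1%, 70.4% and 67.6% in the same order. Both segments were above every other segment in all 4 libraries. TRBV21 followed with 29.4%, 18.8%, 40.9% and 15%. These rest on 16 to 22 TRBV21 clones in a library, and the 95% Wilson interval of the lowest, from 20 clones, ran from 5.24% to 36.0%. TRBV30 was at 11%, 6.25%, 4.63% and 4.91%, with WT replicate 1 above the rest. The other segments spanned means of 1.51% (TRBV3) to 11.4% (TRBV4), with a median of 3.38%. TRBV30 thus lay inside their range, between TRBV17 (6.84%) and TRBV19 (6.0%), the nearest segments. TRBV4 and TRBV12-1 (10.4%) were the nearest to TRBV21, TRBV22 and TRBV24, at distances of 14.6 to 68.5 percentage points.

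**Figure D1:**
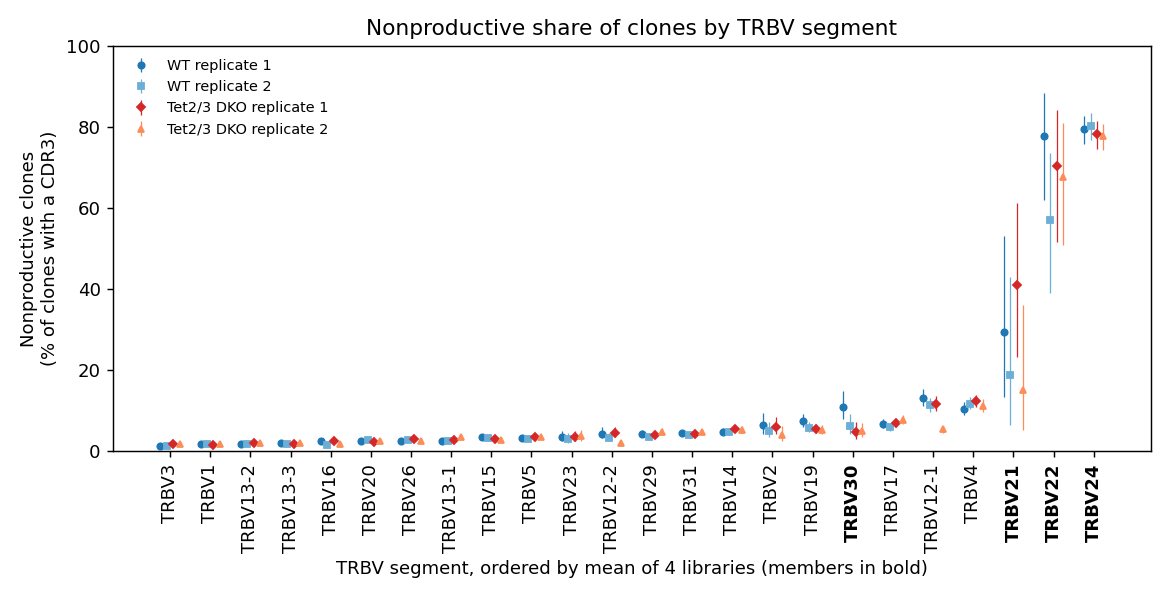
The nonproductive share of clones (percent of clones with a CDR3, linear axis) is plotted for each of 24 TRBV segments, with 1 point per library and bars for 95% Wilson intervals. TRBV24 and TRBV22 stand above 50% in all 4 libraries, TRBV21 lies below them with wide intervals, and TRBV30 lies among the other segments.

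Out-of-frame joins made up most of these clones. In TRBV24, 1775 clones (76.5%) were out of frame, 53 (2.29%) were in frame with a stop in the CDR3, and 491 (21.2%) had an in-frame CDR3 without a stop. In TRBV22 the counts were 83 (66.4%), 3 (2.40%) and 39 (31.2%). In TRBV21 they were 20 (26.7%), 0 and 55 (73.3%), and in TRBV30 102 (6.19%), 2 (0.121%) and 1543 (93.7%). An in-frame CDR3 in a TRBV22 or TRBV24 clone still followed a stop codon in the V exon, so none of these clones reads through.

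In a fit across all 24 segments with the library as a block, 11 segments (45.8%) made up a larger share of nonproductive than of in-frame clones. A smaller share was called for 10 (41.7%), so that 87.5% of segments were called and a call alone does not set a member apart. On the log2 scale the ratio of these shares was 6.56 (SE 0.0951) for TRBV24, 5.76 (SE 0.325) for TRBV22, 3.17 (SE 0.495) for TRBV21 and 0.79 (SE 0.244) for TRBV30. The adjusted p-values by edgeR's quasi-likelihood test were 7.23e-25, 4.92e-13, 4.80e-06 and 0.00460. TRBV24, TRBV22 and TRBV21 had the highest ratios of the 24 segments, while TRBV4 (1.71), TRBV12-1 (1.47) and TRBV17 (0.89) lay above TRBV30. The shares are of all clones with a CDR3, so the 1828 nonproductive TRBV24 clones lower the ratios of all other segments. TRBV5 was called lower (-0.20), although 3.31% of its clones were nonproductive, against 3.29% in the other TRBV segments pooled (4 libraries together). For TRBV30 the call rested on WT replicate 1, without which the ratio was 0.51 with an adjusted p of 0.0798. Set against the other TRBV segments pooled (mean 3.30%), the nonproductive share was higher by 75.6 ± 1.23 percentage points in TRBV24 (SD, n = 4), by 64.9 ± 8.45 in TRBV22, by 22.7 ± 11.6 in TRBV21 and by 3.39 ± 2.90 in TRBV30. The TRBV30 difference was 1.996 points without WT replicate 1 and up to 4.10 with another library left out. Each was higher in 4 of 4 libraries, and the exact sign-flip test gave p = 0.13 for each, the smallest that 4 libraries allow.

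The out-of-frame clones of TRBV24 were uneven between the 2 shifted frames. With the CDR3 length in bases divided by 3, the remainder was 1 in 1296 out-of-frame TRBV24 clones and 2 in 479, so that remainder 1 made up 73.0%. The WT libraries stood at 69.2% and 75.4% and the DKO libraries at 73.0% and 74.3%, against 48.3% to 50.6% in the other TRBV segments. All 4 TRBV24 values lay above the 4 others, with a mean difference of 23.5 ± 3.61 points (SD, n = 4, exact sign-flip p = 0.13). The other segments ran from 39.7% (TRBV1) to 65.3% (TRBV2), so that no other segment reached TRBV24. The 3 most frequent CDR3 lengths of TRBV24 were 43 bases (372 clones), 46 bases (257) and 40 bases (224), each with remainder 1. In the other TRBV segments they were 42, 39 and 45 bases, all in frame. Over all TRBV24 clones with a CDR3, 23.5% had remainder 0, 55.9% remainder 1 and 20.7% remainder 2. Remainder 1 led with each of the 12 TRBJ partners, from 47.3% of clones with TRBJ1-4 to 67.7% with TRBJ1-5. Over these clones 2.78 bases were removed from the V end and 2.84 from the J end on average, against 2.31 and 2.79 in the other TRBV segments. TRBD1 was assigned to 46.2% of them and to 41.8% of the others, given here without a test.

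**Figure D2:**
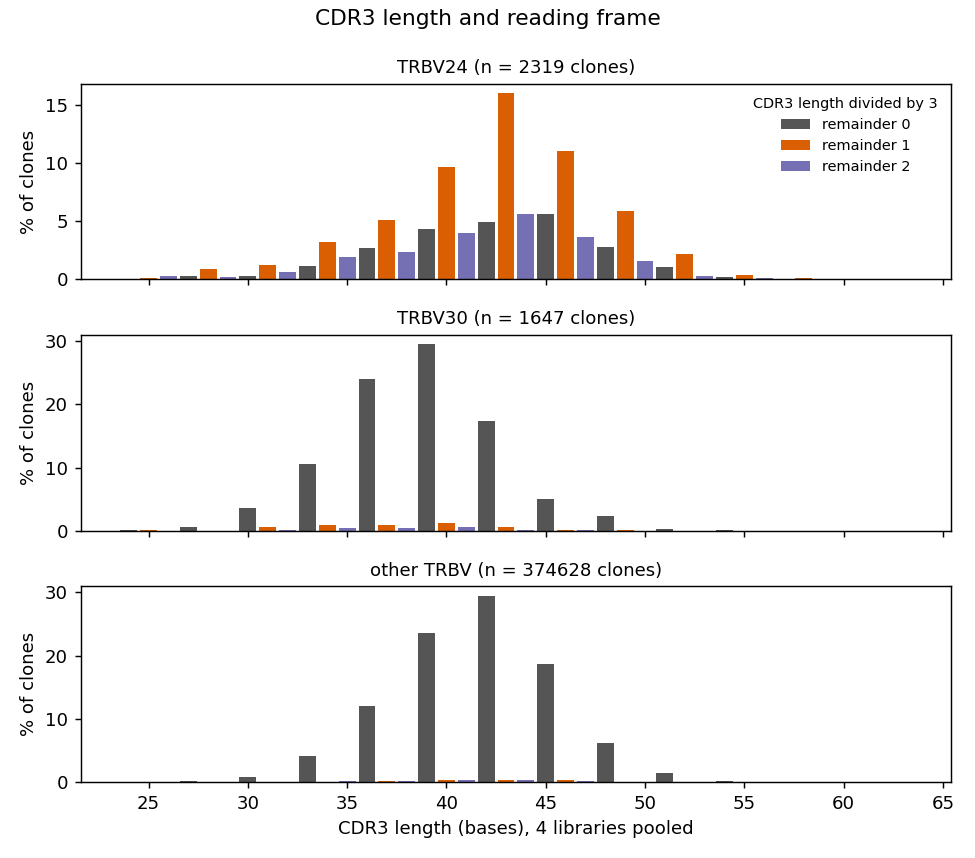
The 3 panels give the percent of clones at each CDR3 length in bases for TRBV24, TRBV30 and the other TRBV segments, 4 libraries pooled, coloured by the remainder of the length divided by 3 (each panel has its own linear axis). TRBV24 peaks at 43 bases with remainder 1, whereas TRBV30 and the other segments peak at in-frame lengths of 39 and 42 bases.

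The same share was 70.6% in TRBV30 (72 of 102 out-of-frame clones), with 73.5% and 72.0% in WT and 52.9% and 76.9% in DKO. The difference from the other segments was 19.4 ± 11.6 points, higher in 4 of 4 libraries (exact sign-flip p = 0.13). In TRBV22 it was 57.8% of 83 clones and in TRBV21 40.0% of 20 clones, and neither differed in 1 direction in all libraries (exact sign-flip p = 0.375 and 0.75). TRBV30 also had a shorter CDR3, 38.2 bases on average against 41.1 in the other TRBV segments, with 38.1, 38.1, 38.4 and 38.2 bases in the 4 libraries against 40.9 to 41.2.

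TRBV30 clones came in a long and a short form. The short form lacked framework region 1, CDR1 and the first bases of framework region 2, and was read from base 112 of the V exon as counted from the start of framework region 1. The stretch below is the 111 bases it lacked, followed by the first 12 bases that it kept. It is shown because its end marks the point where the short form begins, and capitals mark the AG just before that point.
TRBV30 missing stretch: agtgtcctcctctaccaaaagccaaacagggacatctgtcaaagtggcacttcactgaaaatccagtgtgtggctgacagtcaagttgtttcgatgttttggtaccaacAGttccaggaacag

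Of 1654 TRBV30 clones, 324 (19.6%) were short, and 321 of these lacked the same 111 bases, which are 37 whole codons. The clones are assembled sequences and cover nothing before framework region 1, so whether the transcripts themselves lack this stretch, or it was lost in priming or assembly, was not tested. AG occurs 8 times within the 111 bases. The short form made up 25.3% and 20.9% of TRBV30 clones in WT and 13.8% and 19.3% in DKO. Of all TRBV30 reads, short clones held 27.6% and 21.1% for the WT mice, against 21.1% and 21.7% for the DKO mice. WT averaged 23.1% ± 3.13 of clones and DKO 16.5% ± 3.85 (SD, n = 2 each, exact permutation p = 0.33, the smallest that 2 against 2 allow), and both WT libraries were above both DKO libraries by clones. The groups overlapped by reads, with merged clones and with at least 2 reads per clone. The difference of -6.57 points in clones was -4.35 without WT replicate 1, -8.78 without WT replicate 2, -3.84 without DKO replicate 1 and -9.29 without DKO replicate 2. Clones without framework region 1 were 1.24% of TRBV3, 0.0899% or less of each other segment, and 0 of the TRBV21, TRBV22 and TRBV24 clones.

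**Figure D3:**
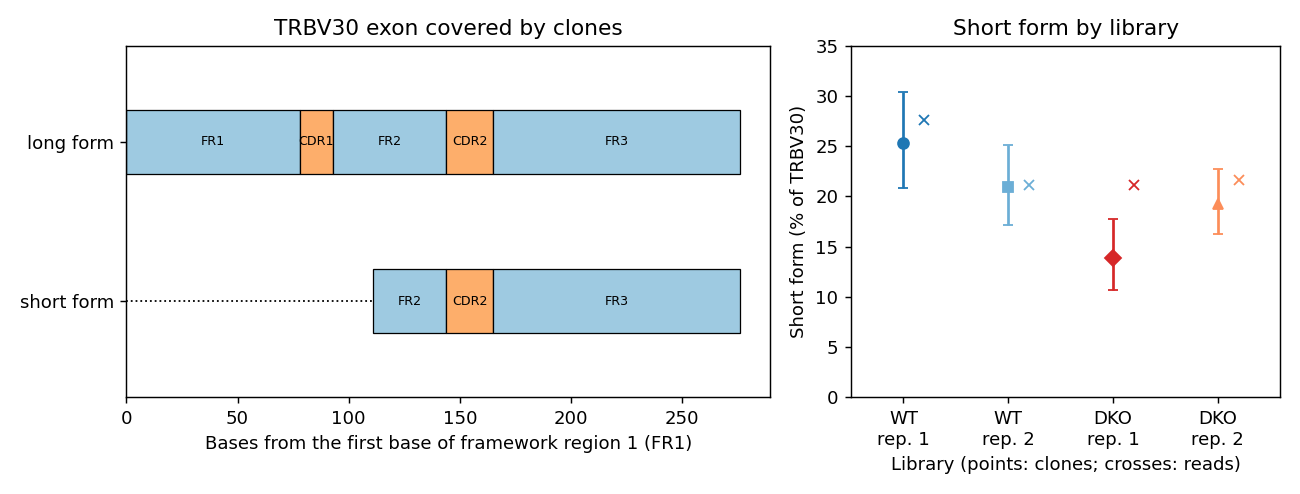
Left, the part of the TRBV30 exon that long and short clones cover, to scale in bases from the first base of framework region 1 (FR, framework region). Right, the short form as a percent of TRBV30 clones with 95% Wilson intervals (points) and of TRBV30 reads (crosses) in each library, from 13.8% to 25.3% of clones.

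Short and long TRBV30 clones differed in reading frame. Of short clones with a CDR3, 65 of 321 (20.2%) were nonproductive, and of long clones 39 of 1326 (2.94%). In the 4 libraries the short form stood at 27.3%, 19.0%, 15.7% and 18.3% and the long form at 5.58%, 2.85%, 2.85% and 1.74%. The ranges did not overlap, and the mean difference was 16.8 ± 3.65 points (SD, n = 4, higher in 4 of 4 libraries, exact sign-flip p = 0.13). Short clones were 62.5% of all nonproductive TRBV30 clones. With the long clones alone, the nonproductive share of TRBV30 was above that of the other segments in WT replicate 1, by 2.19 points, and lay at -0.31, -0.498 and -1.57 points from it in the other 3 libraries. The mean of -0.045 ± 1.59 points (SD, n = 4) thus had no settled direction, at -0.791 without WT replicate 1 and 0.043 to 0.462 without each of the others. In the fit across segments, whose totals include TRBV22 and TRBV24, the log2 ratio of the long clones was -0.35 (edgeR adjusted p = 0.294). The shift lay in 1 frame: remainder 1 held 55 short clones (17.1%) and remainder 2 held 8 (2.49%), against 17 (1.28%) and 22 (1.66%) of the long clones. Some joins were seen in both forms. Of 251 short rearrangements, defined by the J segment and the CDR3 bases within a library, 42 (16.7%) were also found as long clones in the same library. The long clones held 1211 such rearrangements. In both forms, clones that share a join were thus counted more than once in the shares above.

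Clone size, in reads per clone, was on average alike in in-frame and nonproductive clones of TRBV24 and TRBV22, unlike in the other segments pooled. In these other TRBV segments in-frame clones had 4.57, 4.58, 4.28 and 5.57 reads on average in the 4 libraries (WT, then DKO), and nonproductive clones had 2.94, 3.08, 2.97 and 3.43. The in-frame clones were larger in every library, by a factor of 1.52. In TRBV24 in-frame clones had 3.14, 3.12, 3.00 and 3.77 reads and nonproductive clones 3.17, 3.61, 3.07 and 3.33, a ratio of 0.987. Both kinds of TRBV24 clones were thus of like size, near that of nonproductive clones elsewhere. In TRBV22 the mean ratio was 1.00, with in-frame means of 2.88 to 4.27 reads and nonproductive means of 3.13 to 3.84. The TRBV22 ratio was 0.78 in WT replicate 1, 1.07 in WT replicate 2, 1.04 in DKO replicate 1 and 1.16 in DKO replicate 2. Its in-frame clones were thus larger in 3 of 4 libraries. TRBV21 had a ratio of 1.22 and TRBV30 one of 1.15, each also with larger in-frame clones in 3 of 4 libraries. Of the other segments taken singly, TRBV12-1 had a ratio of 1.08, below TRBV21 and TRBV30, with its in-frame clones larger in 3 of 4 libraries, and the rest ran from 1.24 (TRBV19) to 1.89 (TRBV20). On the log2 scale the ratio was lower than in the other segments pooled by 0.627 ± 0.113 in TRBV24, by 0.607 ± 0.256 in TRBV22, by 0.41 ± 0.233 in TRBV30 and by 0.318 ± 0.211 in TRBV21 (SD, n = 4, lower in 4 of 4 libraries, exact sign-flip p = 0.13 for each).

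**Figure D4:**
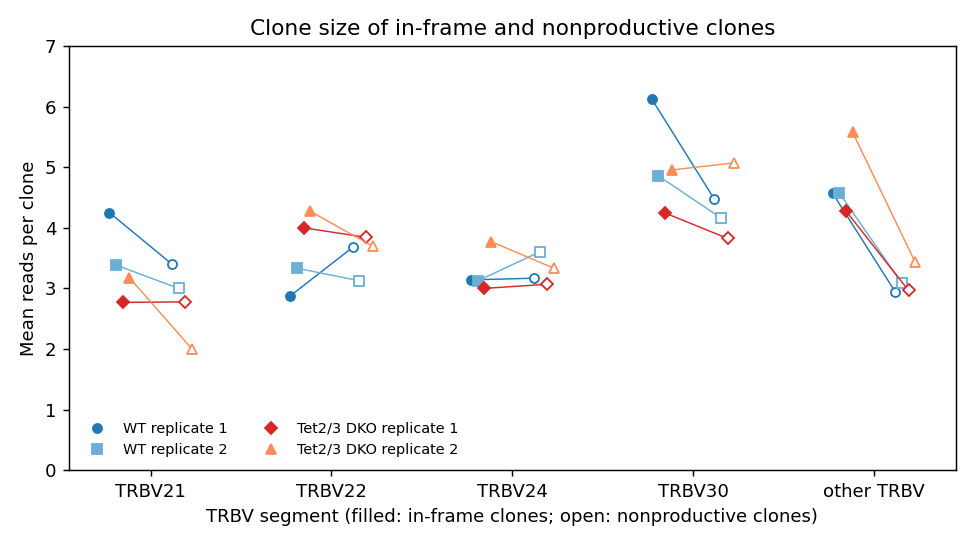
Mean reads per clone (linear axis from 0) of in-frame clones (filled) and nonproductive clones (open), joined for each library. The other TRBV segments fall from in-frame to nonproductive in all 4 libraries, while the TRBV22 and TRBV24 lines run in both directions.

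Compared within in-frame clones, mean TRBV24 clone size was below that of the other segments pooled by 0.54 ± 0.0221 on the log2 scale, that of TRBV22 by 0.40 ± 0.237 and that of TRBV21 by 0.49 ± 0.302 (SD, n = 4, exact sign-flip p = 0.13 for each). By medians the differences were -0.066 in TRBV24, 0.11 in TRBV22 and -0.091 in TRBV21 (exact sign-flip p = 1, 0.875 and 1), so that these differences hold for means only. TRBV23, another segment, had in-frame means of 2.93 to 3.84 reads (3.35 over the 4 libraries, against 3.26 in TRBV24), so that small in-frame clones were not particular to the members. TRBV30 in-frame clones had 6.12, 4.86, 4.24 and 4.95 reads and did not differ in 1 direction from the others (0.08 ± 0.250, exact sign-flip p = 0.75). TRBV30 nonproductive clones, with 4.47, 4.16, 3.82 and 5.07 reads, were larger than nonproductive clones of the other segments by 0.49 ± 0.111 (exact sign-flip p = 0.13). Within TRBV30 the out-of-frame short clones with remainder 1 averaged 5.55 reads and the in-frame short clones 5.77. The long clones averaged 4.81 reads in frame and 2.59 with remainder 1.

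The most abundant clone of each member gives the scale. Each line below is the CDR3 of that clone, from its first to its last base, shown because these clones carry the most reads of each segment. TRBV21 has an in-frame and an out-of-frame clone tied at the top.
TRBV21 with TRBJ2-3: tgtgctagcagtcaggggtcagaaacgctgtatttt
TRBV21 with TRBJ1-1: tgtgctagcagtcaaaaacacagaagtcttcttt
TRBV22 with TRBJ2-4: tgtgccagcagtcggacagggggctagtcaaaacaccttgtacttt
TRBV24 with TRBJ2-3: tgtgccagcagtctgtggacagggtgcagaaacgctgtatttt
TRBV30 with TRBJ2-5: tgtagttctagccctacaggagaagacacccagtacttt

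The 2 TRBV21 clones had 9 reads each in WT replicate 1. The TRBV22 clone had 14 reads in WT replicate 1, and the TRBV24 clone 43 reads in DKO replicate 2. Both are out of frame, with lengths of 46 and 43 bases. The TRBV30 clone is in frame, with 39 bases and 174 reads in WT replicate 1, and a short clone with the same CDR3 had a further 70 reads there. Even this clone was 0.0476% of the reads of its library. Few rearrangements recurred between mice. Of distinct combinations of V, J and CDR3 bases, 3 of 2014 TRBV24 rearrangements (0.149%) and 10 of 1410 TRBV30 rearrangements (0.709%) were found in more than 1 library, against 4.85% of 303797 in the other TRBV segments. None of 69 TRBV21 and none of 108 TRBV22 rearrangements was shared, which allows up to 4.35% and 2.78%. These shares depend on how many clones were sampled and are given without a test. They were not split by reading frame, and 78.8% of TRBV24 clones were nonproductive, against 3.29% in the other TRBV segments.

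The J partners of TRBV30 differed from those of the other TRBV segments pooled. How far single segments among these differ from their pool was not tested. In 48 tests of 12 TRBJ segments against 4 members, 7 (14.6%) passed the threshold, 2 (4.17%) of them higher and 5 (10.4%) lower in the member, and 6 of the 7 were TRBV30. TRBJ1-5 was joined to 0.321% and 0.249% of TRBV30 clones in WT and to 0.813% and 0.701% in DKO, against 2.03% to 2.49% of other clones. TRBJ1-6 was joined to 0.962%, 1.24%, 0.813% and 0.350% of TRBV30 clones, against 2.48% to 2.79%, and TRBJ1-3 to 2.24%, 3.48%, 1.63% and 1.23%, against 4.47% to 4.69%. For these 3 J segments every TRBV30 value lay below every library's value of the other segments pooled. The log2 ratios were -2.04 (SE 0.374), -1.73 (SE 0.353) and -1.14 (SE 0.292), with edgeR adjusted p-values of 1.08e-05, 5.69e-05 and 0.00242. They rest on 9, 13 and 34 TRBV30 clones in all 4 libraries.

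TRBJ2-5 was higher, at 17.9%, 16.9%, 17.1% and 17.5% of TRBV30 clones against 12.9% to 14.4% (log2 ratio 0.35, SE 0.0980, edgeR adjusted p = 0.00605). TRBJ1-2 was also higher (7.17% ± 1.38 against 4.82% ± 0.194, log2 ratio 0.58) and TRBJ2-4 lower (8.44% ± 1.11 against 11.2% ± 0.205, log2 ratio -0.40), both with an edgeR adjusted p of 0.0411 (SD, n = 4). The TRBJ2 cluster as a whole took 77% ± 3.28 of TRBV30 clones and 72.1% ± 0.965 of the others. By edgeR TRBV24 differed in 1 J segment, TRBJ2-5, which it joined less often (11.3% ± 1.49 against 13.7% ± 0.669, log2 ratio -0.29, edgeR adjusted p = 0.0352). This call was lost among in-frame clones alone (-0.16, edgeR adjusted p = 0.876) and with DESeq2 (adjusted p = 0.0522). DESeq2 called TRBJ2-2 lower in TRBV24 instead (log2 ratio -0.53, adjusted p = 0.0267), for which edgeR gave -0.49 with an adjusted p of 0.101. No J segment passed for TRBV21 or TRBV22, whose clones are few. The TRBV30 calls for TRBJ1-5 and TRBJ1-6 held with each library left out. Those for TRBJ1-2 and TRBJ2-4 and the TRBV24 call were lost without WT replicate 1, WT replicate 2 or DKO replicate 2, the TRBJ2-5 call without WT replicate 1 or DKO replicate 2, and the TRBJ1-3 call without DKO replicate 2 alone. With each library left out in turn the log2 ratio kept its direction, at 0.43 to 0.65 for TRBJ1-2, -0.46 to -0.34 for TRBJ2-4, 0.31 to 0.39 for TRBJ2-5 and -1.50 to -0.88 for TRBJ1-3 in TRBV30, and -0.37 to -0.23 for TRBJ2-5 in TRBV24. The TRBJ1-3 and TRBJ2-4 calls were also lost with DESeq2 (adjusted p = 0.0684 and 0.0754), TRBJ2-4 with TMM normalization (edgeR adjusted p = 0.215) and TRBJ1-2 with merged clones (edgeR adjusted p = 0.121) or long TRBV30 clones alone (0.56, edgeR adjusted p = 0.0692). With TMM normalization 7 of 48 tests still passed by edgeR, 2 higher and 5 lower. A lower call outside the 7 of the main setting was thus gained. In all, 3 of 48 tests passed without WT replicate 1, 4 without WT replicate 2 and 2 without DKO replicate 2.

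No J test passed when reads were counted in place of clones, although the log2 ratios kept their direction. For TRBV30 they were -2.53 for TRBJ1-5, -2.02 for TRBJ1-6, -1.74 for TRBJ1-3, -0.37 for TRBJ2-4, 0.67 for TRBJ1-2 and 0.42 for TRBJ2-5, and for TRBJ2-5 in TRBV24 the ratio was -0.28. The edgeR adjusted p-values by reads ran from 0.344 to 0.949 over these 7.

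**Figure D5:**
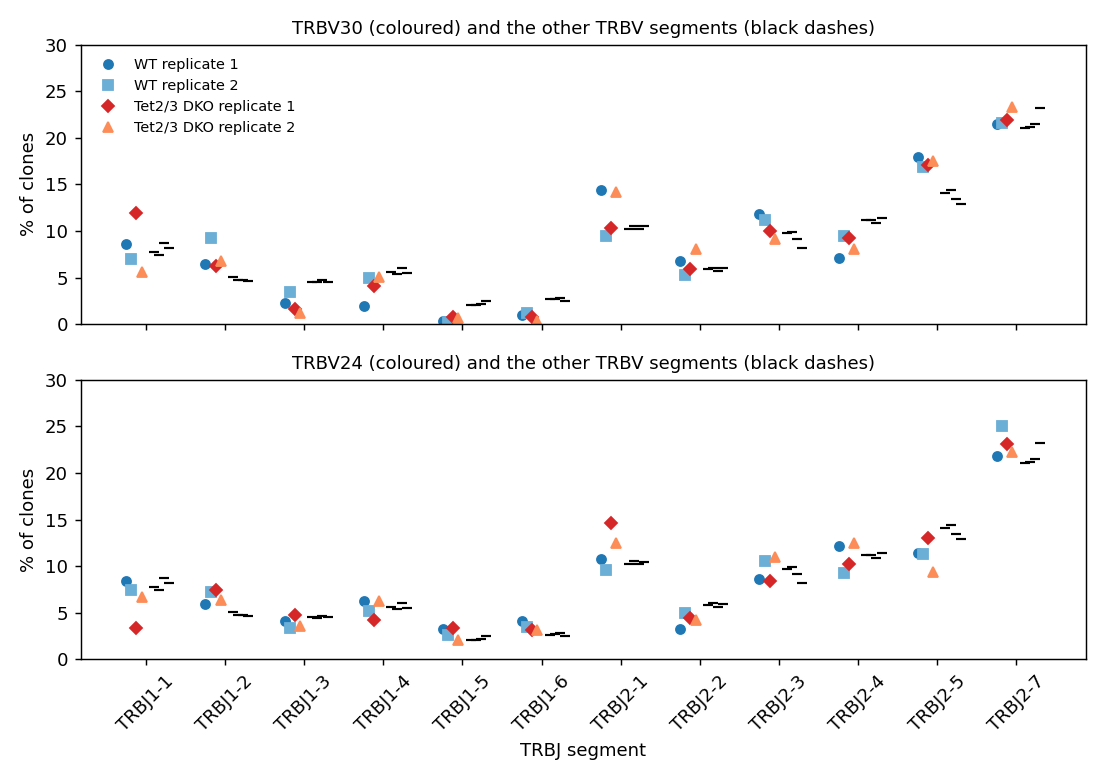
The percent of clones joined to each of 12 TRBJ segments (linear axis) is shown for TRBV30 (upper) and TRBV24 (lower), with 1 coloured point per library, beside the other TRBV segments of the same libraries (black dashes). TRBV30 lies below the dashes at TRBJ1-3, TRBJ1-5 and TRBJ1-6 and above them at TRBJ2-5 in all 4 libraries.

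No member passed the test for a difference in use between genotypes. TRBV24 took 0.490% and 0.419% of TCRβ reads in WT and 0.424% and 0.404% in DKO. TRBV30 took 0.507% and 0.426% in WT and 0.381% and 0.497% in DKO. TRBV22 took 0.0345% and 0.0198% in WT and 0.0256% and 0.0232% in DKO, and TRBV21 0.0186% and 0.0117% in WT and 0.0149% and 0.0107% in DKO. The groups overlapped for TRBV21, TRBV22 and TRBV30, and for TRBV24 DKO replicate 1 lay above WT replicate 2. The log2 fold changes, DKO over WT, were -0.24 (SE 0.482), -0.15 (SE 0.449), -0.13 (SE 0.297) and -0.09 (SE 0.308) for TRBV21, TRBV22, TRBV24 and TRBV30, with edgeR adjusted p-values of 0.887, 0.895, 0.887 and 0.895. With 1 library left out the TRBV24 value ran from -0.015 (without WT replicate 1) to -0.24 (without WT replicate 2), and those of the other 3 members changed sign. With each clone counted once, the TRBV24 value also changed sign, to 0.0064. Those of TRBV21 (0.23) and TRBV30 (0.24) did so too, while TRBV22 stayed below 0 (-0.23). Of the 24 segments, 0 (0%) passed by edgeR, 3 had an unadjusted p under 0.05, and DESeq2 called 1, none of them a member. Ordered by mean share of clones, TRBV21 (0.0199%) and TRBV22 (0.0332%) were the rarest of the 24 segments, and TRBV30 (0.429%), TRBV2 (0.50%) and TRBV24 (0.614%) came next in that order. The libraries' values of TRBV30 and TRBV2 overlapped, and TRBV2 and TRBV24 met at 0.538% in WT replicate 2.

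The nonproductive share by genotype could not reach the threshold with 2 mice in each group, and its values are given as measured. TRBV24 averaged 79.9% ± 0.568 in WT and 77.9% ± 0.402 in DKO (SD, n = 2 each, exact permutation p = 0.33), with both DKO libraries below both WT libraries. TRBV30 averaged 8.61% ± 3.34 and 4.77% ± 0.198 (exact permutation p = 0.33), again without overlap. This difference of -3.84 points was -1.48 without WT replicate 1 and -6.20 without WT replicate 2, and the groups overlapped with merged clones (-2.31) and with long clones alone (-1.92). TRBV22 averaged 67.5% ± 14.6 and 69% ± 1.93, and TRBV21 24.1% ± 7.54 and 28.0% ± 18.3 (exact permutation p = 1 for both), with overlapping values. The other TRBV segments were at 3.27% ± 0.161 and 3.32% ± 0.0325.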

How the data were processed

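Total RNA of sorted splenic CD4 T cells from 2 WT and 2 Tet2/3 DKO mice was converted to libraries by the authors with a SMARTer 5' RACE kit for mouse TCR chains and sequenced on a MiSeq. Per the processing notes and the methods, bcl2fastq 2.20.0, fastp 0.21.0 and MiXCR 4.7.0 were used, with mm10 named as the build. For each clone, each being a different sequence over framework regions 1 to 4, the authors deposited the count of reads and its fraction of all reads of the chain. The deposited fraction equalled the share of the counts and was used only as this check. Tables of the TCR alpha chain were not used.

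The best V and J match was taken without its allele. A CDR3 was out of frame or held a stop as marked in the deposited translation, and clones without a covered CDR3 were left out of frame shares. Counts of reads or clones per segment were tested across all segments with edgeR 4.0.16 (R 4.3.3, quasi-likelihood, column totals as library sizes, at least 10 counts in total for V segments, Benjamini-Hochberg, threshold 0.05), with DESeq2 1.42.0 as an alternative. Library was a block where classes of clones were compared. Values per library were compared by exact two-sided tests: sign flips over 4 libraries, or the 6 assignments of 2 against 2. Simulated tables held 4-fold changes at a fixed spread between libraries that was not estimated from the data. The fits of usage, of nonproductive clones and of J partners recovered 100%, 93.3% and 100% of changed segments. In tables without change they called 0.208%, 0.208% and 0.417% of segments. For J partners only TRBV24 was changed and scored, so that recovery in TRBV21, TRBV22 and TRBV30 was not tested. Values were computed with Python 3.11.15, numpy 2.4.6, pandas 2.3.3 and scipy 1.17.1. V genes were placed with RefSeq symbols (24 of 24 segments matched).

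The segments and the lists compared were chosen with earlier results of these data known. The text names the 4 members, for each the 2 other segments nearest in mean nonproductive share (with at least 100 clones), 11 pseudogene segments, the most abundant clone of each member, and up to 3 J segments per member and direction past the threshold. TRBJ2-4 in TRBV30, a further lower J segment, and TRBJ2-2 in TRBV24 were added after values were seen. So were TRBV1, TRBV2, TRBV3, TRBV5, TRBV20, TRBV23, TRBV29 and the analyses of the short TRBV30 form and of the length remainder. Alternatives covered reads against clones, at least 2 reads per clone, merged clones, a single listed V segment, medians, normalization and each library left out.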

Additional observations from a re-analysis of the deposited data

How the results depend on the processing

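With a floor of 2 reads per clone, merging by CDR3, a single listed V segment, reads in place of clones or any library left out, the nonproductive share of TRBV21, TRBV22 and TRBV24 stayed above that of the other segments. Leaving out each library in turn, the edgeR usage test gave 0 to 5 segments higher and 0 to 3 lower in DKO, all calls coming without DKO replicate 1 and none of them a member. The log2 fold change ran from -0.55 to 0.12 in TRBV21, from -0.50 to 0.30 in TRBV22, from -0.24 to -0.015 in TRBV24 and from -0.29 to 0.092 in TRBV30. With each clone counted once it was 0.23 in TRBV21, 0.0064 in TRBV24 and 0.24 in TRBV30, and DESeq2 called 1 segment lower. No paired mice are named in the labels. Same-numbered libraries deviated together with r = 0.18 over 24 segments, and a fit with the replicate number as a block called 0 segments. J partner calls without each library were 0 to 2 higher and 2 to 5 lower. Counting reads gave 0 higher and 0 lower, with the 7 ratios called by clones keeping their direction, DESeq2 3 lower (TRBJ1-5 and TRBJ1-6 in TRBV30 and TRBJ2-2 in TRBV24), merged clones 1 higher and long TRBV30 clones 1 higher (TRBJ1-2 lost in both), the last an alternative chosen after seeing the data. Long clones alone also turned the TRBV30 nonproductive log2 ratio, from the fit whose totals include TRBV22 and TRBV24, to -0.35. Against the other TRBV segments pooled, the difference of long TRBV30 clones was -0.045 points. This mean was -0.791 without WT replicate 1 and above 0 without each other library. The short-form share, DKO minus WT, was -9.29 to -3.84 points without each library. The genotype difference in nonproductive share, DKO minus WT without each library, was -9.08 to 16.8 points in TRBV21 and -8.77 to 11.9 in TRBV22 and -6.20 to -1.48 in TRBV30, and for TRBV22 -0.744 with merged clones and -1.69 by reads. The log2 ratio of reads per clone without each library was -0.30 to 0.024 for nonproductive TRBV21 clones, -0.020 to 0.16 for all and -0.032 to 0.17 for in-frame TRBV30 clones. In the main setting, by means over 4 libraries, this ratio was -0.18 for nonproductive TRBV21 and 0.085 for nonproductive TRBV24 clones. For TRBV22 it was -0.37 for all, -0.40 for in-frame and 0.21 for nonproductive clones. By medians the ratio was 0.15 for nonproductive TRBV21, 0.038 for all and 0.11 for in-frame TRBV22 clones. With at least 2 reads it was -0.021 for nonproductive TRBV22 and -0.092 for nonproductive TRBV24 clones. The difference in remainder 1 share of TRBV21 was -19.6 to 6.56 points and that of TRBV22 3.66 to 14.8 without each library. The causes were not tested. TRBV21 and TRBV22 had the fewest clones of the members, with 16 to 36 clones a library.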
